A study of Mus musculus with 28 samples.

Results

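The thioredoxin system and the peroxiredoxins it serves were followed here through 9 genes in mouse bone marrow-derived macrophages. They were the thioredoxin reductases Txnrd1 and Txnrd2, the thioredoxins Txn1 and Txn2, the thioredoxin-binding protein Txnip, the sulfiredoxin Srxn1 and the peroxiredoxins Prdx2, Prdx3 and Prdx4. The genes were chosen by name, and every probe set that the array's annotation assigns to one of these symbols was used. That gave 25 probe sets for the 9 genes, of 34945 probe sets that name a single gene, for 18193 genes in all. Prdx1 was not analysed here because its 5 probe sets each name 2 genes, and Prdx5 and Prdx6 were not analysed here.

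The macrophages came from C57BL/6 J mice aged 12 weeks. In the compound experiment, cells of Nrf2 +/+ mice (WT) and of Nrf2 -/- mice (KO) were kept for 4 h with RA839 or with solvent alone, at 0.2% DMSO in each case, which made the groups WT_DMSO, WT_RA839, KO_DMSO and KO_RA839. In the siRNA experiment, cells of Nrf2 +/+ mice received siControl, siKeap1-1 or siKeap1-2. RA839 is a small molecule that binds Keap1 without a covalent bond, and the study asked how Nrf2 signalling answers to it and to loss of Keap1. Each of the 7 groups held 4 Affymetrix arrays, which the design text calls biological replicates. The sources used here do not say whether replicates are separate animals, cultures or pools, so p-values measure the spread between these arrays. The dose of RA839, the siRNA sequences, the time after transfection and the deleted part of the Nrf2 gene are not given there either, and the design text once writes RA838. All levels below are log2 RMA values, a scale on which a step of 1 is a doubling. Changes are differences of group means ± standard error (n = 4 arrays per group). An adjusted p is the Benjamini-Hochberg value of limma's test over all 45037 probe sets, and a probe set is called higher or lower where it is under 0.05.

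As background, peroxiredoxins reduce hydrogen peroxide through a reactive cysteine and are left oxidized by it. Thioredoxin reduces them again, and thioredoxin reductase, a selenoprotein, recharges thioredoxin with electrons from NADPH. Txn1 and Txnrd1 work mainly in the cytosol, and Txn2, Txnrd2 and Prdx3 in mitochondria. A peroxiredoxin that is oxidized further drops out of this cycle, and sulfiredoxin, the product of Srxn1, brings it back. Txnip binds reduced thioredoxin and holds it back. Keap1 sends the transcription factor Nrf2 to degradation, and Nrf2 with a small Maf partner binds antioxidant response elements. Srxn1 and Txnrd1 are textbook genes of this kind in macrophages and other cells.

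The promoters of Srxn1 and Txnrd1 are shown because these genes carried most of the changes below. RefSeq gave windows of 300 bases (250 before and 50 after the annotated start, build GRCm38.p6) for all 9 genes, 11 windows in all, of which 3 belonged to Txnrd1. Both spellings of the core of the antioxidant response element, TGACNNNGC and TGAGNNNGC, were searched on both strands. The sequences read 5′ to 3′ on the gene's strand, and capitals mark the matches.
Srxn1, 250 bases before the start, chr2:152105274-152105523, plus strand: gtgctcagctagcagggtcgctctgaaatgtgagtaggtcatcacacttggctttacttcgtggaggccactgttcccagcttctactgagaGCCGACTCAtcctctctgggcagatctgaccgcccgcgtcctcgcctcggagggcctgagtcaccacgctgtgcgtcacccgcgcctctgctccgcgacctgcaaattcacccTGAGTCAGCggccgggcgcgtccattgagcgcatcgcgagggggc
Srxn1, 30 bases around the match after the start, chr2:152105542-152105571, plus strand: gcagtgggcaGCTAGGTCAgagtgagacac
Txnrd1, 250 bases before the start, chr10:82858956-82859205, plus strand: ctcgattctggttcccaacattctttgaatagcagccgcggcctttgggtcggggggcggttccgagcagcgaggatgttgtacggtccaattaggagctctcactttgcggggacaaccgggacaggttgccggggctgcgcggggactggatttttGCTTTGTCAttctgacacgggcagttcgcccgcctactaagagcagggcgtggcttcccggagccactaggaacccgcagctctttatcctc
Srxn1 held 3 matches. TGAGTCAGC lay at −45 from the start, TGAGTCGGC at −158 and TGACCTAGC at 28, the latter pair on the reverse strand. TGAGTCAGC overlaps TGAGTCA, the letters bound by AP-1 factors, which 5.2% of all windows hold. The Srxn1 window held TGAGTCA 2 times, and the other copy lies outside the marked matches. Txnrd1 held TGACAAAGC on the reverse strand at −92 in 1 of its 3 windows. Txn2 held 1 match, at −187, and the other 8 member windows held none. Of 32851 windows of this length, 27.8% held a match of either spelling, against 3 of the 11 member windows, so a match is common. With TGACNNNGC alone, which was searched first, 2 of the 11 member windows matched, beside 12.4% of all windows. TGAGNNNGC was added after that search had found no match before the start of Srxn1. A match describes letters and shows no binding.

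The labels matched the targeted genes. The Nfe2l2 probe set 1416543_at (the gene of Nrf2) read 12.72 ± 0.20 (SD, n = 4) in WT_DMSO and 3.40 ± 0.11 in KO_DMSO. The Keap1 probe set 1450746_at stood at 11.09 ± 0.10 in siControl, 9.06 ± 0.09 in siKeap1-1 and 9.26 ± 0.15 in siKeap1-2. Medians of the compound arrays lay between 5.61 and 5.71 and those of the siRNA arrays between 5.91 and 5.96, so levels are compared within an experiment only. All 8 macrophage markers were measured, with group means from 9.32 to 14.77. KO against WT called 2 of these markers higher (Fcgr1 and Cd14) and 1 lower, and either Keap1 siRNA called Fcgr1 and Cd14 lower. The mean of 8 neutrophil markers ran from 5.88 to 6.65 over the WT_DMSO arrays and from 5.39 to 6.40 over the KO_DMSO arrays, with S100a8, Ltf and Ctsg lower in KO, and from 6.01 to 7.36 over the siRNA arrays, with Elane higher with siKeap1-1. These markers differed widely in level. Group means were 10.83 to 12.61 for S100a8 and 6.60 to 10.11 for S100a9. Those of Ngp, Camp and Ltf lay between 5.10 and 7.69, and those of Mpo, Elane and Ctsg between 3.19 and 4.42. Of the other 6 marker lists, the fibroblast marker Col1a2 and the erythroid marker Epor were lower in KO and the dendritic cell marker Flt3 was lower with siKeap1-1, and mast cell, T and NK cell and B cell markers had 0 calls. The part of these markers in the members' differences was not tested. One array stood apart before any result: the Gapdh control probe sets, which report RNA quality, were 3.74 brighter at the 3′ than at the 5′ end on WT_RA839 array 2, where the other 15 arrays of that experiment gave 0.77 to 1.00. The Actb control gave 3.1 there, 1.68 to 2.04 on the other WT arrays and 1.28 to 1.45 on the KO arrays. This control was thus higher on every WT array than on every KO array of that experiment. The part of that difference in the KO results was not tested. Results that rest on WT_RA839 array 2 are given with and without it.

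In short, Srxn1 and Txnrd1 were far lower without Nrf2, and both rose when Keap1 was knocked down, Srxn1 mainly with siKeap1-2. Srxn1 rose with RA839 in WT. Txnrd1 was called higher there on 1424486_a_at alone, and that call was lost without any 1 of several arrays. With the replicate number as a block, each Txnrd1 probe set was called higher. Txnip fell with siKeap1-1 and was not called with siKeap1-2. Its dimmer probe set was called higher in KO under RA839, and its brighter one was not. Prdx3 and the brighter Txn1 probe set were modestly lower in KO. Such calls were common there, with 11.4% of all probe sets lower in DMSO and 13% under RA839. Txnrd2 had calls on some of its probe sets, Prdx2 had 1 call and Txn2 had 0. For KO against WT, Prdx4 was called higher on 1416166_a_at in DMSO and lower on 1431269_at under RA839.

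With RA839 in WT, 5 of the 25 member probe sets were called higher (4 of Srxn1 and 1 of Txnrd1) and 0 lower, beside 0.311% of all probe sets called higher and 0.0333% lower. The median change over the 25 was 0.03, beside −0.02 over all probe sets. In KO, 0 of the 25 were called in either direction, as were 0% higher and 0% lower of all probe sets by limma, although 860 of the 45037 had an unadjusted p under 0.05. For the difference of the RA839 response between genotypes, 0 of the 25 were called, beside 0.0377% of all probe sets with a larger response in WT and 0% with a smaller one (1624 at an unadjusted p under 0.05). KO against WT in DMSO called 1 member probe set higher and 9 lower, beside 9.87% and 11.4% of all probe sets. Under RA839 it called 3 higher and 10 lower, beside 13.3% and 13%. In DMSO and under RA839, most of the lower calls were on Srxn1 and Txnrd1 probe sets. Comparisons that share the WT_DMSO, WT_RA839 or siControl arrays are not independent of each other.

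**Figure D1:**
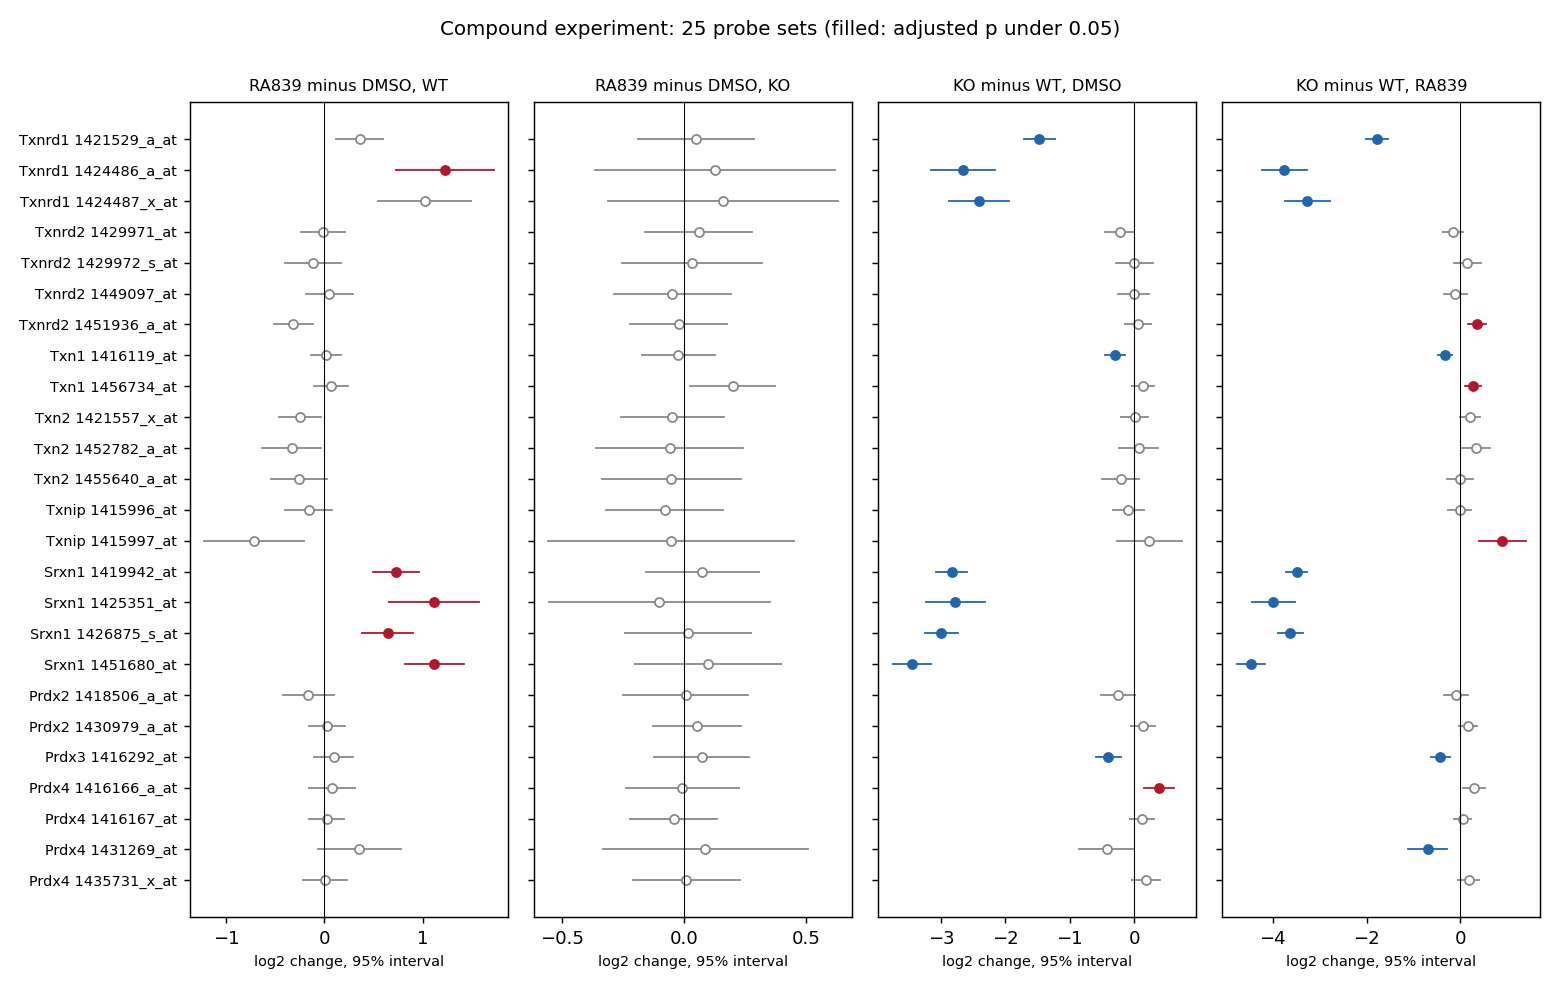
Log2 change with its 95% interval (x axis, scales differ between panels) for each of the 25 member probe sets (y axis) in 4 comparisons of the compound experiment. Filled points have an adjusted p under 0.05; 5 are filled for RA839 in WT, 0 for RA839 in KO, 10 for KO against WT in DMSO and 13 under RA839.

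Srxn1, the sulfiredoxin gene, was measured by 4 probe sets. On its brightest probe set, 1419942_at, the 4 WT_DMSO arrays read 13.17, 13.03, 13.33 and 13.24, and the WT_RA839 arrays read 13.97, 13.68, 14.01 and 14.04. The KO_DMSO arrays read 10.52, 10.39, 10.23 and 10.29, and the KO_RA839 arrays 10.67, 10.35, 10.32 and 10.39. In WT the RA839 arrays thus all exceeded the DMSO arrays, whereas in KO the groups overlapped, far below either WT group.

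RA839 raised this probe set in WT by 0.73 ± 0.11, or 1.66-fold (adjusted p = 0.00511). In KO the difference was 0.08 ± 0.11 (95% interval −0.16 to 0.31, adjusted p = 1). The WT rise was 1.12 ± 0.14 on 1451680_at (2.17-fold, adjusted p = 0.00143), 1.11 ± 0.21 on 1425351_at (adjusted p = 0.032) and 0.64 ± 0.12 on 1426875_s_at (adjusted p = 0.0295). On each of the 4 probe sets the RA839 array was higher than the same-numbered DMSO array in 4 of 4 WT pairs. In KO the change was 0.10 on 1451680_at, −0.10 on 1425351_at and 0.02 on 1426875_s_at, and 0 of the 4 probe sets were called. On 1425351_at the KO means were 4.97 in DMSO and 4.87 under RA839, below the medians of the compound arrays. Changes within KO and distances from WT can be understated at such levels.

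WT_RA839 array 2 was the lowest RA839 array on each Srxn1 probe set, at 7.99 on 1425351_at where the other 3 read 9.09 to 9.21. Without it the WT rise was 0.81 on 1419942_at (adjusted p = 0.00152), 1.24 on 1451680_at (0.000304), 1.40 on 1425351_at (0.000149) and 0.77 on 1426875_s_at (0.00176). The calls of 1419942_at and 1451680_at held without any single array. The 1425351_at call ended without any 1 of the WT_DMSO arrays, WT_RA839 array 1, 3 or 4 or KO_DMSO array 4 (adjusted p up to 0.13). That of 1426875_s_at ended on leaving out any 1 of the WT_DMSO arrays or array 1, 3 or 4 of WT_RA839 (highest adjusted p = 0.117). With only WT_DMSO and WT_RA839 in the fit, 1451680_at alone kept its call. The call was lost on 1419942_at (adjusted p = 0.0601), 1425351_at (0.2) and 1426875_s_at (0.2).

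Whether the Srxn1 response differed between genotypes was tested directly. The difference between the WT and the KO response was 0.65 ± 0.16 on 1419942_at, 1.22 ± 0.30 on 1425351_at, 0.63 ± 0.17 on 1426875_s_at and 1.02 ± 0.20 on 1451680_at. Every one of these 4 intervals lay above 0 before adjustment (the lowest bound was 0.26), and adjusted p-values were 0.409, 0.541, 0.75 and 0.133, so none was called. With the replicate number as a block within genotype, 1451680_at was called (adjusted p = 0.0109). Without WT_RA839 array 2, 1425351_at (1.5, adjusted p = 0.00372) and 1451680_at (1.14, adjusted p = 0.0234) were called.

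Srxn1 was lower in KO on all 4 probe sets. In DMSO, KO lay −2.84 ± 0.11 from WT on 1419942_at (7.14-fold lower, adjusted p = 1.89e-10), −2.77 ± 0.21 on 1425351_at, −3.00 ± 0.12 on 1426875_s_at and −3.45 ± 0.14 on 1451680_at (10.9-fold lower). Under RA839 the distances were −3.49, −3.99, −3.62 and −4.47 in the same order, up to 22.1-fold on 1451680_at (adjusted p = 6.84e-12). On bulk RNA, fewer cells with the transcript and less transcript per cell cannot be told apart. Nor can loss of Nrf2 and anything else that set the KO cultures off from the WT cultures.

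**Figure D2:**
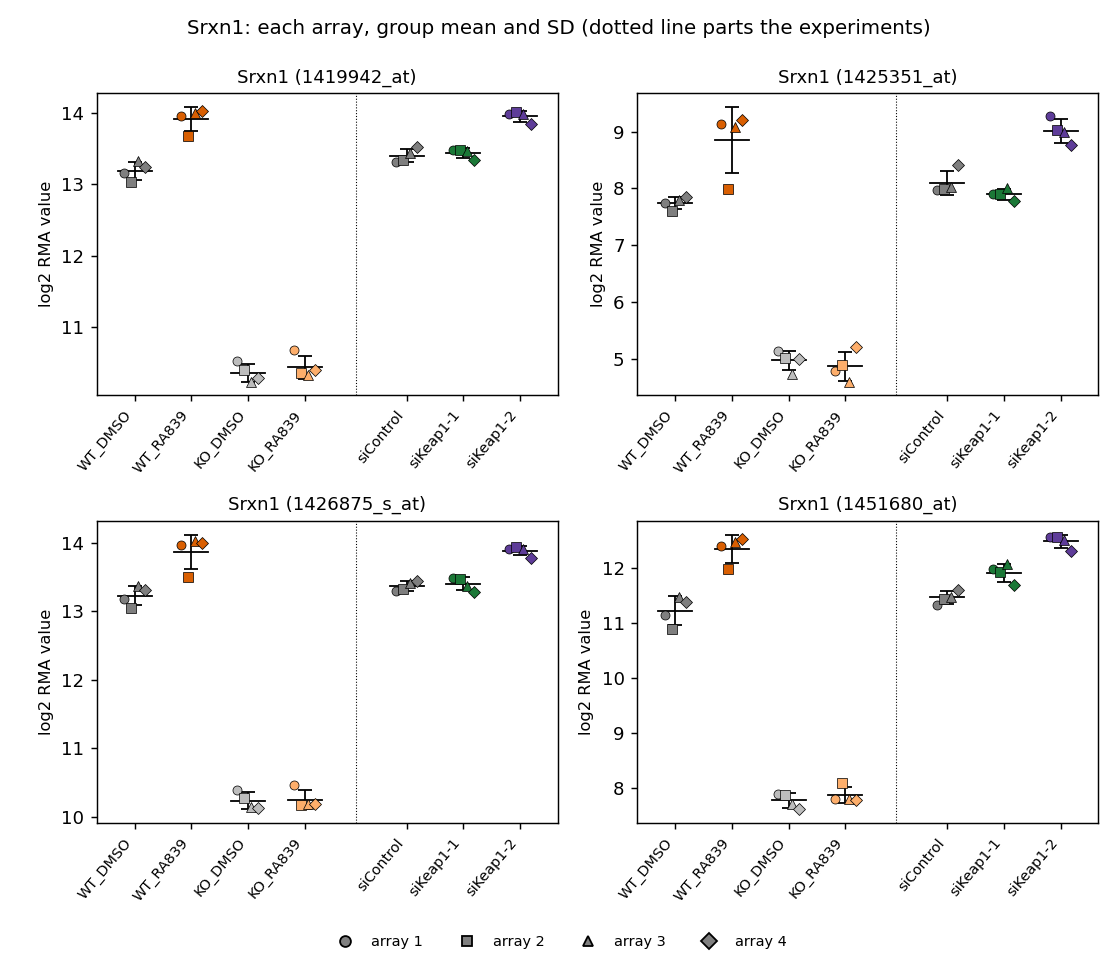
Log2 RMA value (y axis) of each array for the 4 Srxn1 probe sets over the 7 groups (x axis), with group mean and SD; marker shape gives the array number and the dotted line parts the experiments. In all 4 panels both KO groups lie below both WT groups of the compound experiment, and siKeap1-2 lies above siControl and siKeap1-1.

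In the siRNA experiment siKeap1-1 called 4 member probe sets higher (3 of Txnrd1, 1 of Srxn1) and 2 lower (both of Txnip), beside 5.18% and 4.37% of all probe sets. With siKeap1-2, 8 were called higher (3 of Txnrd1, 4 of Srxn1, 1 of Txnrd2) and 1 lower (Prdx2), beside 3.64% and 3.14%. Set directly against siKeap1-2, siKeap1-1 gave 0 higher and 8 lower member probe sets (4 of Srxn1, 2 of Txnip, 2 of Txnrd2), beside 1.82% and 2.18%. The median changes over the 25 were 0.04, 0.05 and 0.01, beside 0.00, 0.01 and −0.01 over all probe sets.

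Srxn1 split the Keap1 siRNAs. On 1419942_at the siControl arrays read 13.31, 13.35, 13.44 and 13.52 and the siKeap1-1 arrays 13.49, 13.48, 13.47 and 13.34. The siKeap1-2 arrays read 13.98, 14.01, 13.99 and 13.85. The siKeap1-1 arrays overlapped siControl, and all siKeap1-2 arrays lay above both.

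Against siControl, siKeap1-2 raised 1419942_at by 0.55 ± 0.07 (1.46-fold, adjusted p = 0.000376), 1425351_at by 0.91 ± 0.12 (adjusted p = 0.000553), 1426875_s_at by 0.52 ± 0.07 (adjusted p = 0.000566) and 1451680_at by 1.02 ± 0.09 (2.03-fold, adjusted p = 3.98e-05). The siKeap1-1 changes were 0.04 ± 0.07 (adjusted p = 0.815), −0.20 ± 0.12 (0.364), 0.03 ± 0.07 (0.839) and 0.45 ± 0.09 (0.00903) in the same order, so only 1451680_at was called. The difference between the siRNAs was called on all 4 probe sets, from −1.11 ± 0.12 on 1425351_at (adjusted p = 0.000307) to −0.49 ± 0.07 on 1426875_s_at (adjusted p = 0.00178). The probe sets therefore disagree on whether siKeap1-1 changed Srxn1 and share the order of the siRNAs. Keap1 mRNA was below siControl with both.

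**Figure D3:**
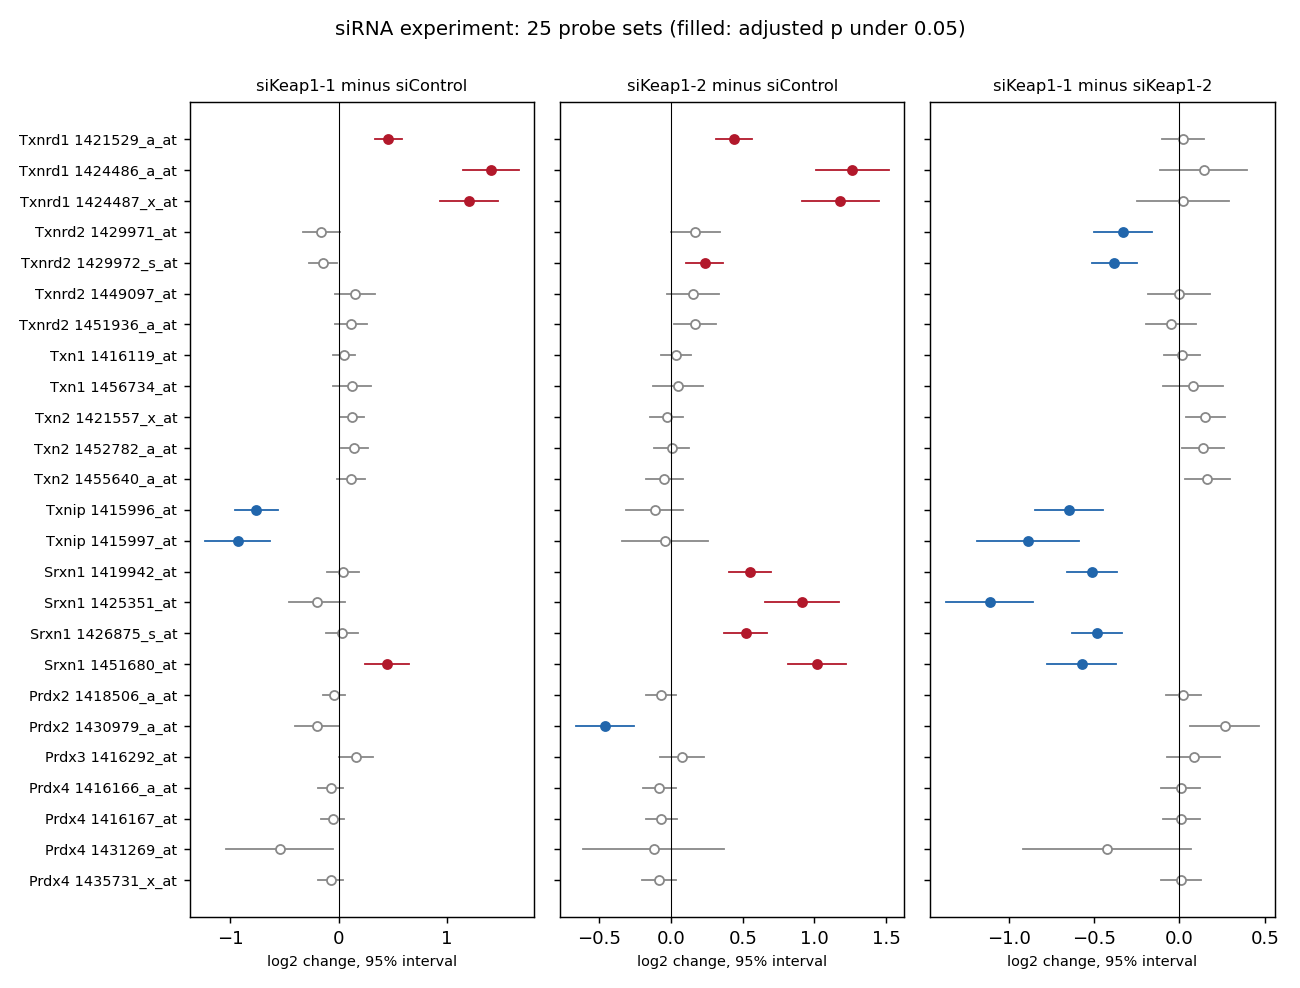
Log2 change with its 95% interval (x axis, scales differ between panels) for each of the 25 member probe sets (y axis) with siKeap1-1, with siKeap1-2 and between the siRNAs. Filled points have an adjusted p under 0.05; Txnrd1 is filled in both siRNA panels and open between them, and Srxn1 and Txnip are filled between them.

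Txnrd1, the cytosolic thioredoxin reductase, was lower in KO and rose with both Keap1 siRNAs on each of its 3 probe sets, which differ widely in brightness. On the brightest, 1421529_a_at, the WT_DMSO arrays read 13.68, 13.72, 13.62 and 13.61 and the WT_RA839 arrays 14.06, 14.00, 13.99 and 14.01. The KO_DMSO arrays read 12.00, 12.04, 12.33 and 12.37 and the KO_RA839 arrays 12.01, 12.07, 12.40 and 12.45. In WT the RA839 and DMSO values did not overlap, while in KO arrays 1 and 2 were low and arrays 3 and 4 high in both groups.

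The RA839 difference in WT was 0.36 ± 0.11 on this probe set (adjusted p = 0.29), and 0.0348 with the replicate number as a block within genotype. On the dimmer 1424486_a_at the WT_DMSO arrays read 6.87, 7.43, 8.07 and 7.41 and the WT_RA839 arrays 8.50, 8.70, 9.01 and 8.48. These groups did not overlap, and the rise was 1.23 ± 0.23 (2.34-fold, adjusted p = 0.0288, with the block 0.00327). That call ended without any 1 of WT_DMSO arrays 1, 2 and 4 and WT_RA839 arrays 2, 3 and 4 (adjusted p up to 0.11; 0.0627 and a change of 1.22 without WT_RA839 array 2). On 1424487_x_at the difference was 1.02 ± 0.22 (adjusted p = 0.0729, with the block 0.0129). With the mean of the Txnrd1 probe sets as the gene's value, the rise was 0.87 (adjusted p = 0.0188). In KO the changes were 0.05, 0.13 and 0.16 (adjusted p = 1 each). The KO_DMSO means were 12.18, 4.79 and 4.00, where the medians of the compound arrays were 5.61 to 5.71. On the dimmer probe sets, changes within KO and distances from WT can therefore be understated. The difference of the responses was 0.31, 1.10 and 0.86 on the 3 probe sets in this order, with adjusted p = 1, 0.949 and 1 and 95% intervals of −0.03 to 0.65, 0.40 to 1.79 and 0.19 to 1.53.

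In DMSO, KO lay −1.47 ± 0.11 from WT on 1421529_a_at (2.78-fold lower, adjusted p = 4.63e-07), −2.65 ± 0.23 on 1424486_a_at (6.29-fold lower, adjusted p = 1.81e-06) and −2.41 ± 0.22 on 1424487_x_at (adjusted p = 3.09e-06). Under RA839 it lay −1.79, −3.75 and −3.27 away. The brightest probe set gave the smallest difference in each of these comparisons. The part of brightness, or of transcripts that only some probe sets match, was not tested.

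Both Keap1 siRNAs raised Txnrd1. On 1421529_a_at the siControl arrays read 13.78, 13.83, 13.87 and 13.89, the siKeap1-1 arrays 14.23, 14.29, 14.32 and 14.37, and the siKeap1-2 arrays 14.23, 14.25, 14.33 and 14.33. The siRNA groups overlapped each other and lay wholly above siControl. The rise was 0.46 ± 0.06 (1.38-fold, adjusted p = 0.00029) with siKeap1-1 and 0.44 ± 0.06 (adjusted p = 0.000531) with siKeap1-2. On 1424486_a_at it was 1.41 ± 0.12 (2.65-fold, adjusted p = 1.93e-05) and 1.26 ± 0.12 (adjusted p = 4.71e-05), and on 1424487_x_at 1.2 ± 0.12 and 1.18 ± 0.12. Between the siRNAs Txnrd1 differed by 0.02 ± 0.06 on 1421529_a_at (95% interval −0.10 to 0.14), 0.14 ± 0.12 on 1424486_a_at (−0.11 to 0.40) and 0.02 ± 0.12 on 1424487_x_at (−0.25 to 0.29), and none was called. Whether the siRNAs split Srxn1 more than Txnrd1 was not tested.

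**Figure D4:**
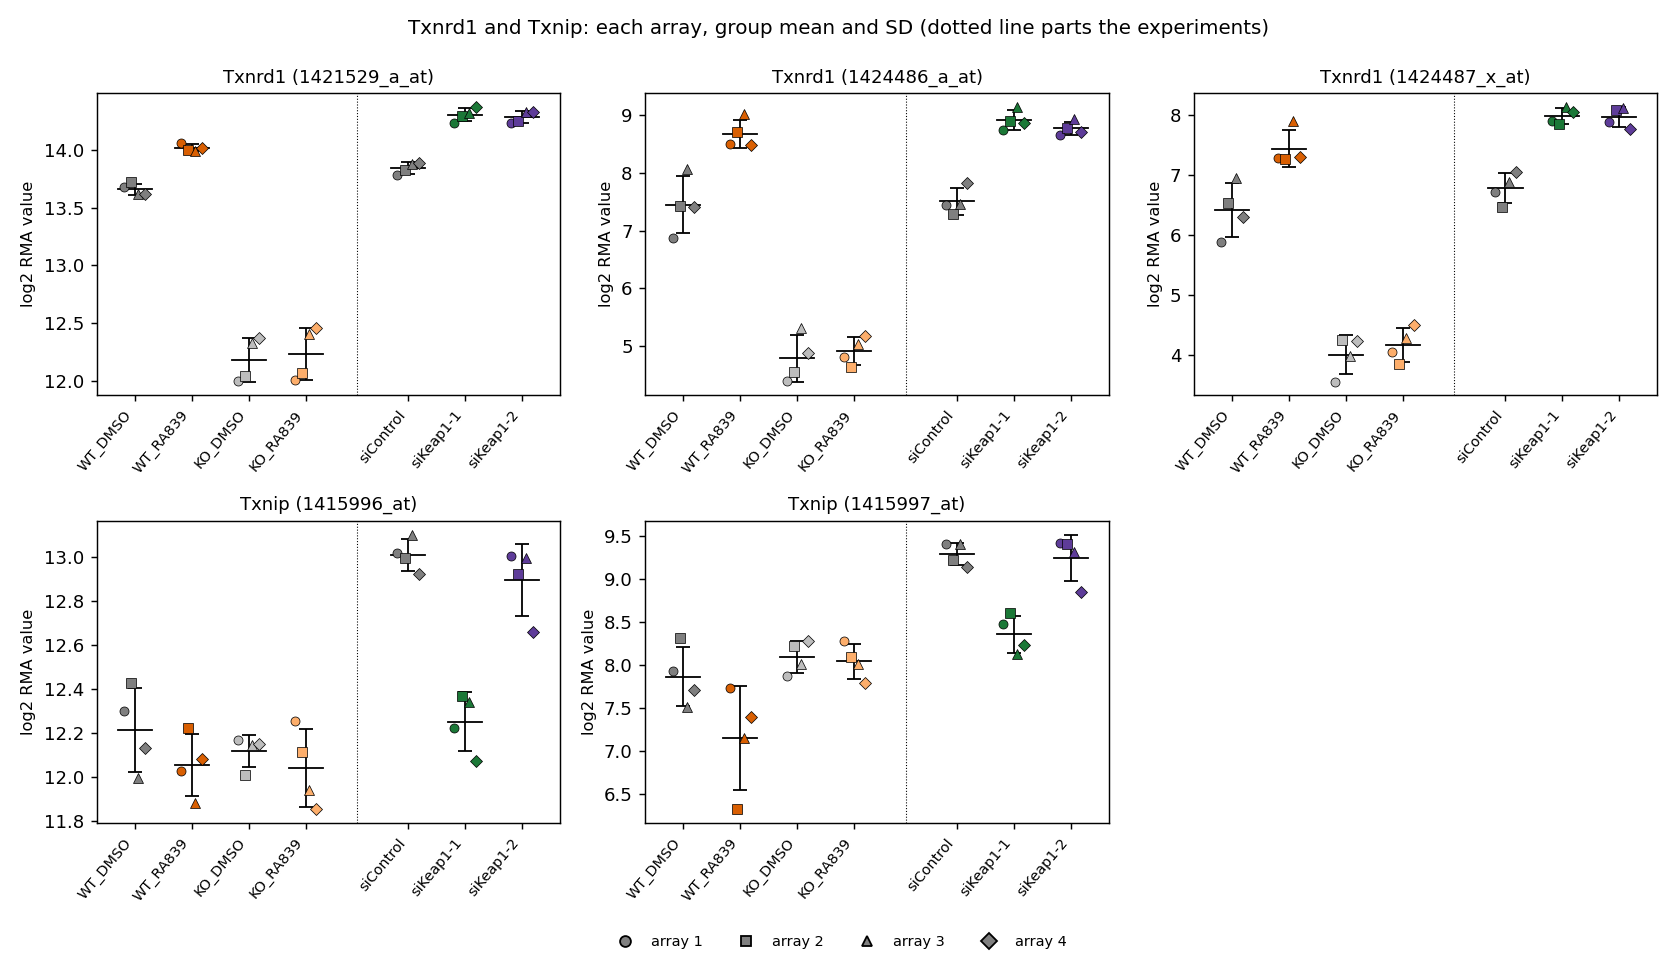
Log2 RMA value (y axis) of each array for the 3 Txnrd1 and 2 Txnip probe sets over the 7 groups (x axis), with group mean and SD; marker shape gives the array number. Txnrd1 lies lower in both KO groups than in both WT groups of the compound experiment and above siControl with both Keap1 siRNAs. Txnip lies below siControl with siKeap1-1.

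Txnrd2, the mitochondrial reductase, was not called lower in KO on any of its 4 probe sets. On its brightest probe set, 1429971_at, group means were 8.88 ± 0.13 (SD, n = 4) in WT_DMSO, 8.87 ± 0.20 in WT_RA839, 8.65 ± 0.08 in KO_DMSO and 8.71 ± 0.10 in KO_RA839. KO lay −0.23 ± 0.10 from WT in DMSO (95% interval −0.45 to −0.01, adjusted p = 0.134), with all KO_DMSO arrays below all WT_DMSO arrays. Under RA839 it lay −0.16 from WT (adjusted p = 0.293), and −0.25 with array weights, where it was called (0.0415). The other 3 probe sets gave −0.00, −0.01 and 0.06 in DMSO. The single call in the compound experiment was on the dim 1451936_a_at under RA839 (0.36 ± 0.09, adjusted p = 0.0115), and with only the groups compared in the fit it was lost (0.0566).

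With the siRNAs, 1429972_s_at of Txnrd2 gave 8.86, 8.93, 8.90 and 8.87 on the siControl arrays, 8.75, 8.78, 8.65 and 8.80 on the siKeap1-1 arrays and 9.02, 9.14, 9.13 and 9.20 on the siKeap1-2 arrays. These 3 groups did not overlap. The change was 0.24 ± 0.06 with siKeap1-2 (adjusted p = 0.0334) and −0.15 ± 0.06 with siKeap1-1 (adjusted p = 0.166), and the siRNAs differed by −0.38 ± 0.06 (adjusted p = 0.00356). On 1429971_at they differed by −0.33 ± 0.08 (adjusted p = 0.0357). On 1449097_at and 1451936_a_at they differed by −0.00 and −0.05, so the probe sets disagree. The siKeap1-2 call of 1429972_s_at ended without any siControl array or siKeap1-2 array 2, 3 or 4 (adjusted p up to 0.0918). The 1429971_at call between the siRNAs ended without siControl array 2, siKeap1-1 array 1, 2 or 3 or any siKeap1-2 array (up to 0.113). With all 28 arrays in 1 fit these 3 Txnrd2 calls were lost (0.341 for siKeap1-2, 0.0802 and 0.0657 between the siRNAs).

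Txn1, the cytosolic thioredoxin that Txnrd1 reduces, was lower in KO by a small margin on the brighter of its 2 probe sets. On 1416119_at the WT_DMSO arrays read 14.24, 14.28, 14.24 and 14.18 and the KO_DMSO arrays 13.94, 13.92, 13.91 and 13.98. The WT_RA839 arrays read 14.31, 14.12, 14.30 and 14.26 and the KO_RA839 arrays 13.90, 13.92, 13.87 and 13.95. Every KO array lay below every WT array.

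The change was −0.30 ± 0.07 in DMSO (1.23-fold lower, adjusted p = 0.00774) and −0.33 ± 0.07 under RA839 (adjusted p = 0.003). RA839 left Txn1 at 0.01 ± 0.07 in WT and −0.02 ± 0.07 in KO, with 95% intervals within −0.18 and 0.17, and the siRNA changes were 0.05 and 0.04 ± 0.05. None of these 4 was called. A dim probe set, 1456734_at, went the other way in KO under RA839 (0.26 ± 0.08, adjusted p = 0.0266). That call ended on leaving out array 4 of either group (highest adjusted p = 0.0895), and with renewed quantile normalization, a trended robust prior or only the groups compared (0.0573 to 0.0754). With the mean of both Txn1 probe sets as the gene's value, the KO difference was not called (−0.08, adjusted p = 0.378 in DMSO and −0.04, adjusted p = 0.713 under RA839).

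Txn2, the mitochondrial thioredoxin, had 0 calls on its 3 probe sets in the 8 comparisons. Changes ran from −0.33 (1452782_a_at, RA839 in WT, adjusted p = 0.476) to 0.34 (the same probe set, KO against WT under RA839, adjusted p = 0.0907). That value of 0.34 was called without WT_RA839 array 1 (0.48, adjusted p = 0.0129) and in a fit to all 28 arrays together (0.0236). All siKeap1-1 arrays lay above all siControl arrays on each probe set, with mean differences of 0.12 to 0.14 (adjusted p = 0.153 to 0.283). With only brighter probe sets in the fit, 1452782_a_at was called with siKeap1-1 (0.049) and 1421557_x_at between the siRNAs (0.15, adjusted p = 0.0404).

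Txnip, which binds and restrains thioredoxin, fell with siKeap1-1. On 1415996_at the siControl arrays read 13.02, 13.00, 13.10 and 12.92, the siKeap1-1 arrays 12.22, 12.37, 12.34 and 12.07, and the siKeap1-2 arrays 13.01, 12.93, 13.00 and 12.66. All siKeap1-1 arrays lay below all arrays of both other groups, which overlapped. The siKeap1-1 change was −0.76 ± 0.09 (1.69-fold lower, adjusted p = 0.000246), and that of siKeap1-2 −0.11 ± 0.09 (95% interval −0.31 to 0.09, adjusted p = 0.551). The siRNAs differed by −0.65 ± 0.09 (adjusted p = 0.00195). The dimmer 1415997_at gave −0.93 ± 0.14 (adjusted p = 0.00107), −0.04 ± 0.14 (0.905) and −0.89 ± 0.14 (0.00345). These calls held without any single array.

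In the compound experiment the Txnip probe sets disagreed. On 1415996_at the 16 arrays ran from 11.85 to 12.43 and the groups overlapped in all 4 comparisons of group means, with changes from −0.16 to −0.01 and 0 calls. On 1415997_at the WT_RA839 arrays read 7.74, 6.32, 7.15 and 7.40 and the WT_DMSO arrays 7.93, 8.31, 7.51 and 7.70, a change of −0.71 ± 0.24 (adjusted p = 0.328). It was −0.44 (adjusted p = 0.548) without WT_RA839 array 2, the lowest array. Each RA839 array was below its same-numbered DMSO array on both probe sets in WT. KO lay above WT under RA839 on 1415997_at, by 0.89 ± 0.24 (adjusted p = 0.0121) or 0.62 without WT_RA839 array 2 (adjusted p = 0.0245). In DMSO KO lay above WT on it by 0.23 ± 0.24 (adjusted p = 0.533). With the mean of both probe sets as the gene's value, KO was called higher under RA839 (0.44, adjusted p = 0.0306).

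The peroxiredoxins, which remove peroxide, changed less. Prdx3, the mitochondrial member with 1 probe set (1416292_at), read 11.31, 11.44, 11.26 and 11.22 in WT_DMSO and 10.78, 10.95, 10.98 and 10.91 in KO_DMSO. It read 11.33, 11.63, 11.38 and 11.27 in WT_RA839 and 10.90, 10.93, 11.06 and 11.01 in KO_RA839. KO arrays were all below WT arrays, by −0.40 ± 0.09 in DMSO (1.32-fold, adjusted p = 0.00595) and −0.43 ± 0.09 under RA839 (adjusted p = 0.00332). RA839 gave 0.10 ± 0.09 in WT and 0.07 ± 0.09 in KO. With siKeap1-1 the change was 0.16 ± 0.07 (adjusted p = 0.203), called with the replicate block (0.0434), and with siKeap1-2 0.08 ± 0.07 (adjusted p = 0.605).

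Prdx4, the peroxiredoxin of the secretory pathway, had 4 probe sets that disagreed in sign. KO against WT in DMSO was 0.38 ± 0.11 on 1416166_a_at (adjusted p = 0.0214), 0.12 on 1416167_at and 0.18 on 1435731_x_at. It was −0.43 on the dim 1431269_at (adjusted p = 0.137, and 0.0159 without WT_RA839 array 2, which acts here only through the shared spread). The 1416166_a_at arrays read 13.03, 13.07, 12.88 and 12.70 in WT_DMSO and 13.40, 13.42, 13.15 and 13.22 in KO_DMSO, with no overlap. That call ended without any 1 of WT_DMSO arrays 3 and 4 and KO_DMSO arrays 1 and 2 (adjusted p up to 0.0689).

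Under RA839 1416166_a_at was at 0.30 (adjusted p = 0.0554), and was called without WT_RA839 array 2 (0.36, adjusted p = 0.0292), WT_DMSO array 4 (0.0428) or KO_RA839 array 3 (0.0463), while 1431269_at was called lower (−0.70 ± 0.20, adjusted p = 0.0169). On 1431269_at WT_RA839 array 2 was the highest array, at 6.83 where the other 3 read 5.66 to 6.01. Without it the change was −0.44 (adjusted p = 0.0221). With the siRNAs Prdx4 had 0 calls. Its 3 brighter probe sets lay between −0.08 and −0.06, and 1431269_at was at −0.55 ± 0.23 with siKeap1-1 (adjusted p = 0.175).

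Prdx2, a cytosolic peroxiredoxin, had 2 probe sets. The brighter, 1418506_a_at, had compound group means between 13.06 and 13.31, siRNA group means between 13.52 and 13.58, and 0 calls. KO against WT in DMSO was −0.25 ± 0.12 there (adjusted p = 0.151), with all KO_DMSO arrays below all WT_DMSO arrays. Without WT_RA839 array 2, which read 12.70 where the other 3 read 13.26 to 13.36, that difference was called (adjusted p = 0.0207). That array is not part of the DMSO comparison and acts on it only through the spread that the fit shares. The difference in DMSO was also called with array weights (0.0346), in a fit to all 28 arrays (0.0471) and without both WT arrays numbered 2 (0.0333). Without WT_RA839 array 2 a call was also made for the difference under RA839 (−0.23, adjusted p = 0.0468; −0.08 with all arrays). On 1430979_a_at the siControl arrays read 10.18, 10.40, 10.45 and 10.28, the siKeap1-1 arrays 9.91, 10.22, 10.28 and 10.11 and the siKeap1-2 arrays 9.71, 9.92, 9.94 and 9.88. Array 1 was the lowest in each group, and all siKeap1-2 arrays lay below all siControl arrays. The change was −0.46 ± 0.09 with siKeap1-2 (adjusted p = 0.0101) and −0.20 ± 0.09 with siKeap1-1 (adjusted p = 0.236). With the replicate block the siKeap1-1 change (0.0239) and the difference of 0.27 between the siRNAs (0.161 without the block, 0.0111 with it) were called. On 1418506_a_at the siKeap1-2 change was −0.07 ± 0.05 (adjusted p = 0.488), so the probe sets disagree.

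**Figure D5:**
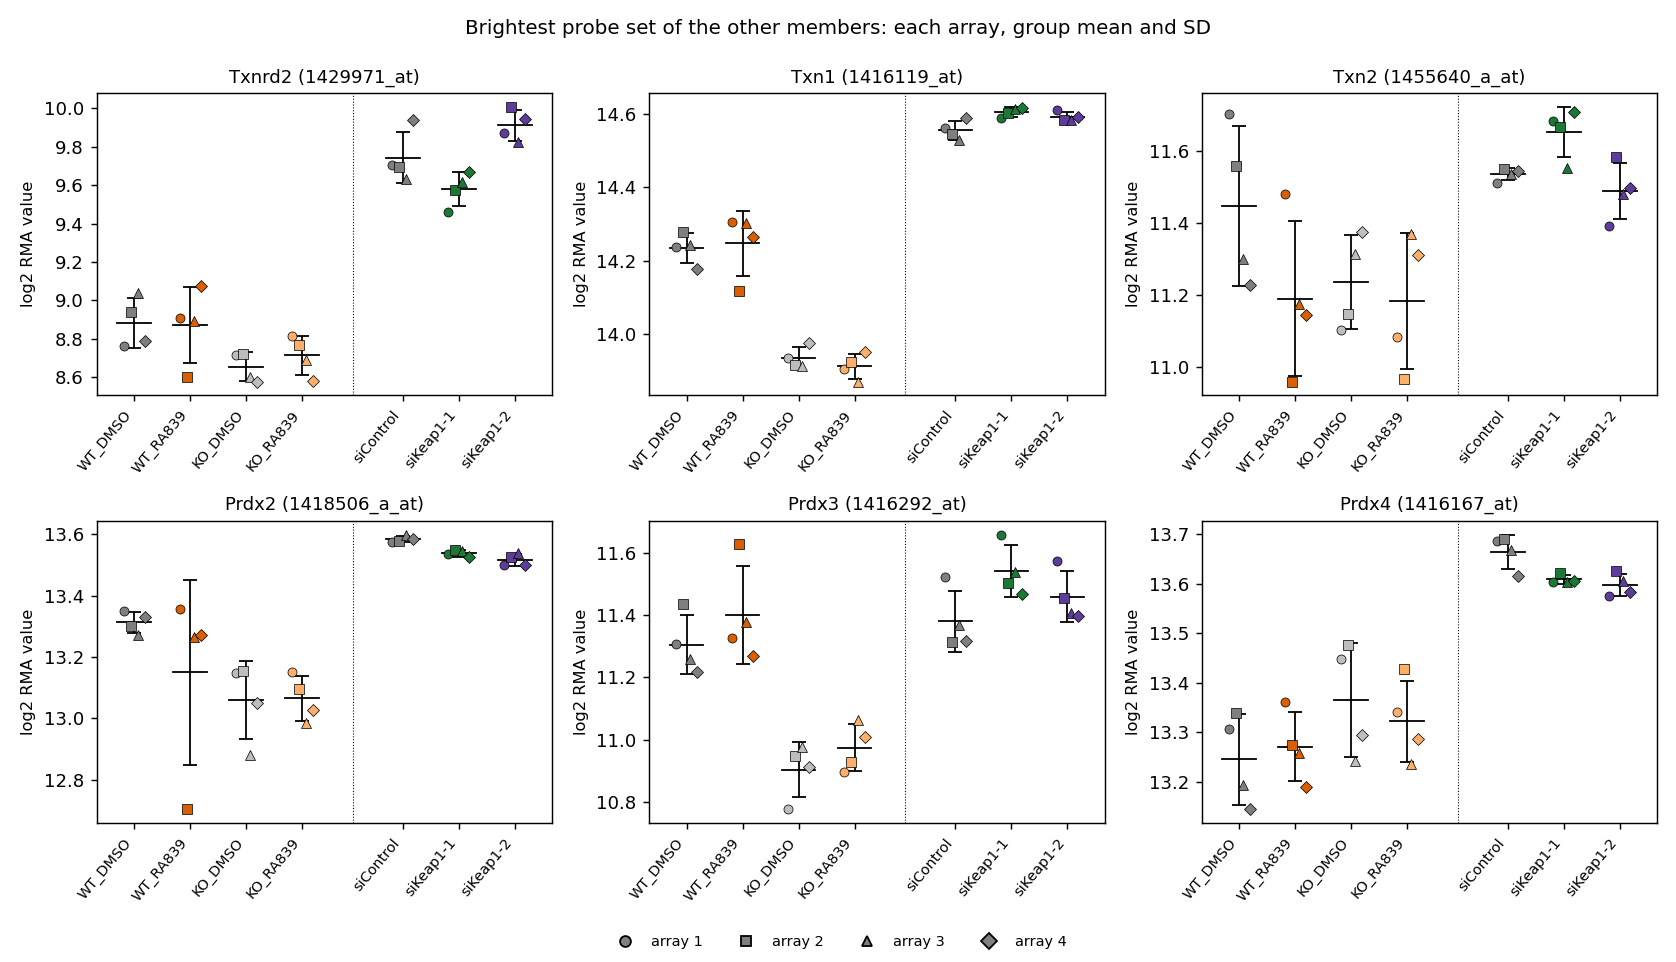
Log2 RMA value (y axis, scales differ) of each array for the brightest probe set of Txnrd2, Txn1, Txn2, Prdx2, Prdx3 and Prdx4 over the 7 groups (x axis), with group mean and SD; the dotted line parts the experiments. Txn1 and Prdx3 lie lower on all 8 KO arrays than on all 8 WT compound arrays.

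Of the brightest probe sets, the group order in the compound experiment was WT_RA839, WT_DMSO, then both KO groups for Srxn1 and Txnrd1. The neighbours KO_RA839 and KO_DMSO did not differ beyond their spread in either gene, and WT_RA839 and WT_DMSO did by the test for Srxn1 and not, without the block, for Txnrd1. For Txn1 and Prdx3 the WT groups lay above the KO groups, with no called difference within a genotype. For Txnrd2, Txn2, Txnip, Prdx2 and Prdx4 no neighbouring groups were told apart by a call. In the siRNA experiment Srxn1 ran from siKeap1-2 down to siKeap1-1 and siControl, which were not told apart, Txnrd1 from both Keap1 siRNAs, not told apart, down to siControl, and Txnip from siControl and siKeap1-2, not told apart, down to siKeap1-1.

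Around the members, 48 genes of related function were measured on their brightest probe sets, in 6 lists of other thioredoxin-fold proteins, glutaredoxins, methionine sulfoxide reductases with sestrins, ribonucleotide reductase, arrestin relatives of Txnip with their glucose-sensing regulators, and selenoprotein synthesis. With RA839 0 of the 48 were called in WT, in KO or for the difference between them. KO against WT called 4 higher and 5 lower in DMSO (median 0.02) and 6 higher and 5 lower under RA839 (median −0.03). These are 8.33% and 10.4% of the 48 in DMSO and 12.5% and 10.4% under RA839, near the shares of all probe sets (9.87% and 11.4%, and 13.3% and 13%), so the KO counts are no result about these lists. With siKeap1-1 7 were higher and 4 lower (median 0.00), with siKeap1-2 7 higher and 5 lower (median 0.04), and between the siRNAs 3 were higher and 4 lower (median 0.03). The siRNA shares were 14.6% higher and 8.33% lower with siKeap1-1, 14.6% and 10.4% with siKeap1-2 and 6.25% and 8.33% between them, where all probe sets gave 5.18% and 4.37%, 3.64% and 3.14%, and 1.82% and 2.18%. The lists hold each gene's brightest probe set only, and the part of that choice in these shares was not tested.

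Of 18 other thioredoxin-fold proteins, 1 was higher and 1 lower in KO in DMSO, 3 rose and 2 fell with siKeap1-1, and 3 rose and 2 fell with siKeap1-2. Txnrd3, a reductase with an added glutaredoxin domain, fell in KO (−1.01 ± 0.16, adjusted p = 0.000536) and rose with siKeap1-2 (0.39 ± 0.09, adjusted p = 0.0241). Nxn, nucleoredoxin, rose with siKeap1-1 (1.29 ± 0.09, adjusted p = 3.67e-06) and siKeap1-2 (1.07 ± 0.09, adjusted p = 1.5e-05). Pdia6, a protein disulfide isomerase, was higher in KO (0.42 ± 0.11, adjusted p = 0.0116) and with siKeap1-1 (0.49 ± 0.11, adjusted p = 0.0156). Txndc11 was higher in KO under RA839 (0.47 ± 0.10, adjusted p = 0.00279) and with siKeap1-1 (0.30 ± 0.06, adjusted p = 0.00523).

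Of 5 genes of the glutaredoxin list, 2 were lower in KO. Gsr, glutathione reductase, was at −0.44 ± 0.12 (adjusted p = 0.0168) and rose with siKeap1-1 (0.37 ± 0.05, adjusted p = 0.000861) and siKeap1-2 (0.34 ± 0.05, adjusted p = 0.00212). Glrx5, a mitochondrial glutaredoxin of iron-sulfur cluster assembly, was at −0.58 ± 0.12 (adjusted p = 0.00217). Of 7 methionine sulfoxide reductases and sestrins, Msrb3 was higher in KO (1.38 ± 0.18, adjusted p = 8.41e-05) and Msrb2 fell with siKeap1-2 (−0.57 ± 0.08, adjusted p = 0.00129). Sesn3, a sestrin, was lower with siKeap1-1 than with siKeap1-2 (−0.39 ± 0.09, adjusted p = 0.0235).

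Ribonucleotide reductase makes DNA precursors with electrons from thioredoxin. Of its 3 subunits Rrm2 fell with siKeap1-1 (−0.83 ± 0.13, adjusted p = 0.00144) and siKeap1-2 (−0.69 ± 0.13, adjusted p = 0.00626), and Rrm2b was higher in KO (0.42 ± 0.10, adjusted p = 0.00619). Among 7 genes of the arrestin list, Arrdc3 fell with siKeap1-1 (−0.50 ± 0.06, adjusted p = 0.000263) and siKeap1-2 (−0.22 ± 0.06, adjusted p = 0.0483). Arrdc4 rose with siKeap1-2 (0.62 ± 0.11, adjusted p = 0.00489), and Mlx, a partner of the glucose-sensing factors that act on Txnip, was lower in KO (−0.42 ± 0.13, adjusted p = 0.0364) and rose with siKeap1-1 (0.40 ± 0.06, adjusted p = 0.00103). Mlxip, such a factor, was lower in KO (−0.32 ± 0.09, adjusted p = 0.0218), and Arrdc3 was higher in KO under RA839 (1.28 ± 0.38, adjusted p = 0.0212). Of 8 genes of selenoprotein synthesis 2 rose with each siRNA. They were Eefsec, the elongation factor for selenocysteine (0.37 and 0.38 ± 0.09, adjusted p = 0.0217 and 0.0239), and Trnau1ap (0.32 and 0.33 ± 0.07, adjusted p = 0.0104 and 0.0128). Pstk, the kinase that prepares the selenocysteine tRNA, was higher in KO (0.37 ± 0.12, adjusted p = 0.0409), and Scly, which releases selenium from selenocysteine, was lower in KO under RA839 (−0.39 ± 0.14, adjusted p = 0.0448).

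Genes with the most similar profiles were found by the root mean square difference over 5 log2 changes (RA839 in WT and in KO, KO against WT in DMSO, and each siRNA). For Srxn1 they were Cd244a (0.28), Slc40a1 (0.28) and Syde1 (0.33), where the median gene lay 1.33 away. For Txnrd1 they were Tuba4a (0.062), Met (0.1) and Pfn2 (0.11), with a median of 0.739. For Txnip they were Usp46 (0.054), Itgb1 (0.081) and Ccdc158 (0.093), with a median of 0.404. For RA839 in WT, Slc40a1, Cd244a and Syde1 stood at 0.97, 0.26 and 0.38, where Srxn1 stood at 0.73. For KO against WT they stood at −2.72, −2.53 and −2.47. With siKeap1-1 and siKeap1-2, Slc40a1 stood at 0.56 and 0.38 and Syde1 at 0.53 and 0.45, the reverse of the order of Srxn1. Cd244a stood at 0.30 and 0.53, in the order of Srxn1. Usp46 stood at −0.72 with siKeap1-1 and −0.01 with siKeap1-2. The measure orders profiles and has no test.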

How the data were processed

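Biotin-labelled cRNA of 28 samples was hybridised to Affymetrix mouse arrays. Each array's deposited table holds log2 values, which the authors obtained by RMA per the submitters' processing notes, with no version given. RMA can shrink differences of dim probe sets, so their folds can be understated. Of 45101 probe sets, 64 controls were left out. Each experiment was fitted apart with limma 3.58.1 (R 4.3.3; 1 coefficient per group, eBayes). A gene's representative is its probe set with the highest mean over 28 arrays. The rule named all member probe sets, up to 4 called genes per list and the 3 nearest profiles. The members, lists, rule and tests were chosen with earlier results of these data known. The procedure was tested on simulated data whose arrays were drawn independently. That test therefore did not cover the correlation of same-numbered arrays described below. The second spelling of the promoter motif was added after the first search had been seen, and an E-box searched then is not used here.

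Same-numbered arrays deviated together within WT (correlations of 0.204 to 0.398), within KO (0.584 to 0.602) and in the siRNA experiment (0.105 to 0.634), and did not across genotypes (−0.223 to −0.00812). The numbers come from the titles, which do not say what they share. A replicate block was run as an alternative, beside other priors, scalings, filters, gene-level values and fits without single arrays. Leaving out an array of a group outside a comparison keeps its change and moves only the spread that the fit shares. No arrays were identical (0 pairs). The number of arrays limits the precision. Promoter sequences are RefSeq's.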

Additional observations from a re-analysis of the deposited data

Results flagged for a closer look

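Among 175 groups of 4 arrays (25 probe sets in 7 groups), 15 held an array far from the other 3 by Dixon's ratio, which chance does in about 1 of 20 groups. WT_RA839 array 2, whose Gapdh and Actb controls stood apart, was such an array 4 times. It read 7.49 for Txnrd2 1429972_s_at (others 8.11 to 8.18), 7.99 for Srxn1 1425351_at (9.09 to 9.21), 13.5 for Srxn1 1426875_s_at (13.97 to 14.02) and 12.7 for Prdx2 1418506_a_at (13.26 to 13.36). Another WT_RA839 array, number 3, read 7.89 for Txnrd1 1424487_x_at (7.25 to 7.29). Their part in the RA839 differences is shown by the values without single arrays.

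The other compound arrays were WT_DMSO array 3 at 10.23 for Txn2 1452782_a_at (10.44 to 10.47), KO_DMSO array 2 at 12.01 for Txnip 1415996_at (12.14 to 12.17), KO_RA839 array 1 at 10.46 for Srxn1 1426875_s_at (10.16 to 10.19) and KO_RA839 array 2 at 8.09 for Srxn1 1451680_at (7.78 to 7.80). In the siRNA experiment, siKeap1-1 array 4 read 6.84 for Txn1 1456734_at (6.52 to 6.56) and 13.34 for Srxn1 1419942_at (13.47 to 13.49). For siKeap1-2, array 3 read 6.40 for Txn1 1456734_at (6.56 to 6.59) and array 4 read 13.85 for Srxn1 1419942_at (13.98 to 14.01). Control array 4 of this experiment read 8.41 for Srxn1 1425351_at (7.98 to 8.02), and siKeap1-1 array 2 read 13.62 for Prdx4 1416167_at (13.60 to 13.61).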

How the results depend on the processing

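Of the member results over all alternatives, 4679 kept their side of the threshold, 68 lost a call and 40 gained one. Of results with a call in either fit, 0 reversed direction. Direction was not compared where neither fit made a call, and some of those results changed sign. Txnrd2 1429972_s_at for RA839 in WT went from −0.12 to 0.05 without WT_RA839 array 2. The 5 member calls for RA839 in WT became 2 at an adjusted p under 0.01 and 1 with only the groups compared, and ran from 2 to 5 without single arrays (2 on leaving out array 1, 2 or 4 of WT_DMSO or array 3 or 4 of WT_RA839, and 3 on leaving out array 1 of WT_RA839). For the difference of the response between genotypes, the 0 calls became 2 with array weights, 2 with all 28 arrays in 1 fit, 2 without both WT arrays numbered 2 and 1 with the replicate block within genotype, and ran from 0 to 2 without single arrays. Counting genes by their brightest probe set, RA839 in WT called 1 and siKeap1-2 called 2; with the mean of a gene's probe sets these were 2 and 4, and the Txn1 calls in KO were lost. The cause was not tested. With the replicate block the member calls were 7 for RA839 in WT (beside 579 of all probe sets, 1.29%) and 0 in KO (0%). In the siRNA experiment they were 8 with siKeap1-1 (beside 15.5% of all probe sets), 9 with siKeap1-2 (12.6%) and 9 between the siRNAs (8.39%). For the difference of the response between genotypes, the 1 call lay beside 0.135%. Across genotypes, where the numbers do not pair arrays, the block gave 10 in DMSO (beside 22.4%) and 14 under RA839 (27.4%). Beyond the blocked values given beside the results, the block added only the Prdx4 1416166_a_at call in KO against WT under RA839 (adjusted p = 0.0119).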
